A study of Mus musculus with 7 samples.

Results

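The 8 keratin genes described here are Krt5, Krt14 and Krt15 of the basal layer, Krt6a, Krt6b, Krt16 and Krt17, which the epidermis makes under stress and in wounds, and Krt79 of the hair follicle duct. They were chosen by name, as the rows of these 8 genes among the 55423 features of a table of RNA-seq counts per gene, and all 8 passed the filter on low counts that left 24433 genes for testing. The table holds bulk RNA of mouse skin tumours at clinical endpoint. In Ivl:BRAFV600E mice, topical tamoxifen at 7 to 10 weeks of age activated a Cre recombinase driven by the involucrin promoter, and this turned on BRAFV600E in the differentiation-committed IVL+ cells of the basal and suprabasal layers. Ivl:BRAFV600E-SOX2LSL mice carried the same alleles and, at Rosa26, a stop-flanked SOX2 cassette with an eGFP reporter, so that the same Cre also switched on SOX2. The mice were on a C57BL/6J background, and 2 of the Ivl:BRAFV600E mice, tumours 1 and 2, also carried a tdRFP reporter allele. From each genotype 3 tumours were used, 1 per mouse, and they are numbered within each genotype by their place in the table. Tumours 1 and 2 of Ivl:BRAFV600E and tumour 3 of Ivl:BRAFV600E-SOX2LSL came from females and the others from males, so sex was not balanced. Every Ivl:BRAFV600E-SOX2LSL tumour was collected sooner after induction than every Ivl:BRAFV600E tumour, so genotype and time since induction cannot be told apart.

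Keratins are the intermediate filament proteins of epithelia. Each filament is built from pairs of a type I and a type II keratin, and the partners are made together: K14 and K15 pair with K5 in basal cells, and K1 and K10 replace them as cells leave the basal layer. K6, K16 and K17 are low in resting interfollicular epidermis and are induced by wounding, inflammation and hyperproliferation, and they are abundant in squamous tumours. Krt14, Krt15, Krt16 and Krt17 are type I genes and lie in the keratin cluster on chromosome 11. Krt5, Krt6a, Krt6b and Krt79 are type II genes and lie in the cluster on chromosome 15.

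The type I members lie on the minus strand of GRCm38, Krt15 at chr11:100131758-100135928, Krt14 at chr11:100203162-100207548, Krt16 at chr11:100246091-100248902 and Krt17 at chr11:100256217-100261029. The type II members also lie on the minus strand, Krt6b at chr15:101676023-101680287, Krt6a at chr15:101689910-101694307, Krt5 at chr15:101707070-101712898 and Krt79 at chr15:101929332-101940324. Krt6a and Krt6b are neighbours and near-copies, and how far their counts can be told apart limits every statement on either. Their coding sequences were identical at 97.8% of 1659 aligned bases, with 37 substitutions between them. The longest stretch without a difference, bases 34 to 313 of both coding sequences (280 bases within 1 exon, chr15:101693936-101694215 in Krt6a and chr15:101679911-101680190 in Krt6b, minus strand), is printed once because both genes hold it.

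Krt6a and Krt6b, shared: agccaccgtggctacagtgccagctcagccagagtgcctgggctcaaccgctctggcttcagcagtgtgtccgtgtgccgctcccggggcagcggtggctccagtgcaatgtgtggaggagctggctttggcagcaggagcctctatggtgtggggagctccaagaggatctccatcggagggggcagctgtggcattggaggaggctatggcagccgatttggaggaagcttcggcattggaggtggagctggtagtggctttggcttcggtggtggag

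A read that falls wholly inside this stretch carries no base that tells the genes apart. The window of 60 coding bases with the most differences, 10, is shown for contrast (bases 817 to 876 of both coding sequences, chr15:101692484-101692543 in Krt6a and chr15:101678303-101678362 in Krt6b, minus strand), with the differing bases in capitals. Reads over this window tell the genes apart.

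Krt6a: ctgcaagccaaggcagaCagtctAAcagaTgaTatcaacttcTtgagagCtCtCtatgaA
Krt6b: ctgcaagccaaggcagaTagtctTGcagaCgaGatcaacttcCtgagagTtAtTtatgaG

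Of all windows of 150 bases, the length of a read, along the Krt6a transcript, 30.2% also occurred in another annotated gene. Krt6b held 18.5% of them and Gm49428, which lies antisense to Krt6a, held 11.5%. For Krt6b 18.8% of windows occurred elsewhere, all of them in Krt6a. For Krt16 18.4% occurred in Gm11597, an unprocessed pseudogene at chr11:100228845-100232078 that received between 0.434% and 0.702% as many counts as Krt16. Krt5, Krt14, Krt15, Krt17 and Krt79 had no window in common with another gene, although the coding sequences of Krt14 and Krt16 were identical at 86.5% of aligned bases and those of Krt14 and Krt17 at 84.1%. How reads with more than 1 possible origin were counted is not given in the sources used here, so the counts of Krt6a and Krt6b are uncertain as a split and are also given as a sum.

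**Figure D1:**
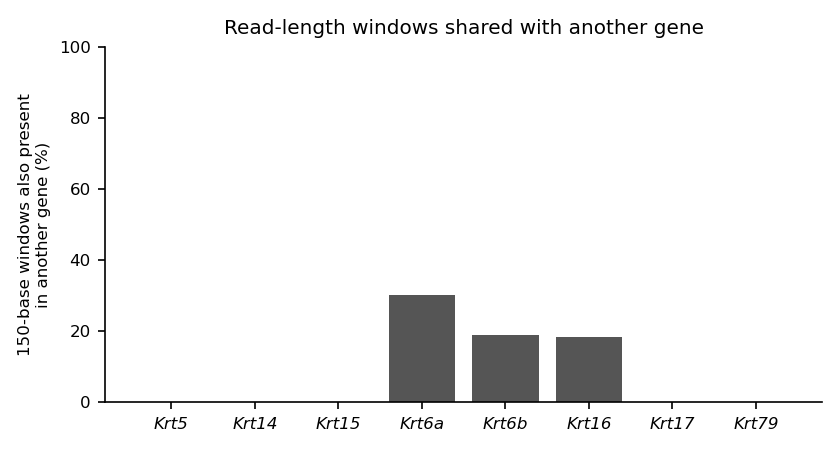
Bars give, for each of the 8 keratins, the percentage of 150-base windows of its transcript that occur without a mismatch in another annotated gene. Krt6a stands at 30.2%, Krt6b at 18.8% and Krt16 at 18.4%, and the other 5 genes at 0.

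The tumours had 23565432 to 31152826 gene counts each. Values are CPM, the counts of a gene relative to the size of its library, after TMM scaling, which corrects that size for differences in RNA composition. Sox2 was at 0.716, 0.508 and 0.238 CPM in the Ivl:BRAFV600E tumours and at 182, 155 and 158 CPM in the Ivl:BRAFV600E-SOX2LSL tumours, and no column went against its genotype. Marker genes of several cell types also differed between the genotypes. Summed over 14 genes taken as markers of keratinocytes, the level was 25908.5 to 38478 CPM in Ivl:BRAFV600E and 11470 to 24195 CPM in Ivl:BRAFV600E-SOX2LSL. Summed over 12 genes of skeletal muscle it was 5.05 to 18.4 CPM against 846 to 3550 CPM. The keratinocyte genes did not move one way, 7 of 14 having a log2 fold change above 0 and 7 below, and their sum is carried by abundant genes such as Dsp and Pkp1, which were lower. Their 1 called gene, Epcam, an adhesion molecule, rose from 30.0, 8.04 and 18.5 CPM to 428, 141 and 155 CPM (log2 fold change 3.68, edgeR adjusted p = 0.031). Of these muscle genes 11 of 12 rose, Myh4 (not called) being at 0 in all and Ckm and Myh2 at 0 in some of the Ivl:BRAFV600E tumours. Of 8 myeloid genes 2 rose, Ptprc with a log2 fold change of 1.30 and Csf1r with 1.98 (edgeR adjusted p = 0.048 for both), all 8 had log2 fold changes above 0, and their sum of 241 to 768 CPM against 630 to 1221 CPM overlapped. The sum of 8 fibroblast genes was 790 to 5128 CPM against 4017 to 8471 CPM and also overlapped. The part of these differences in the keratin values was not tested beyond setting them against the keratinocyte genes, and in bulk RNA fewer cells of a type cannot be told apart from less RNA per cell.

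Of the 8 keratins, 0 passed the test between the genotypes in the edgeR quasi-likelihood test at an adjusted p below 0.05 over all genes, where 3.9% of all tested genes passed. At an unadjusted p below 0.05 there were 3 of 8, Krt15 higher and Krt6b and Krt16 lower in Ivl:BRAFV600E-SOX2LSL, against 25.7% of all genes. These 3 passed in DESeq2 after adjustment, against 15.0% of all genes, and 0 of 8 passed in limma voom, against 8.77%. The log2 fold change, given throughout as Ivl:BRAFV600E-SOX2LSL against Ivl:BRAFV600E, was below 0 for 5 keratins (Krt14 and Krt17 among them changed sign under other settings) and above 0 for 3, with a median of -0.46 beside 0.04 over all genes. For 3 of 8 the groups did not overlap, Krt15 and Krt79 being higher and Krt16 lower, where this held for 34.2% of all genes (18.2% higher and 16% lower). Beside these shares nothing particular to the 8 genes is read from their counts.

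**Figure D2:**
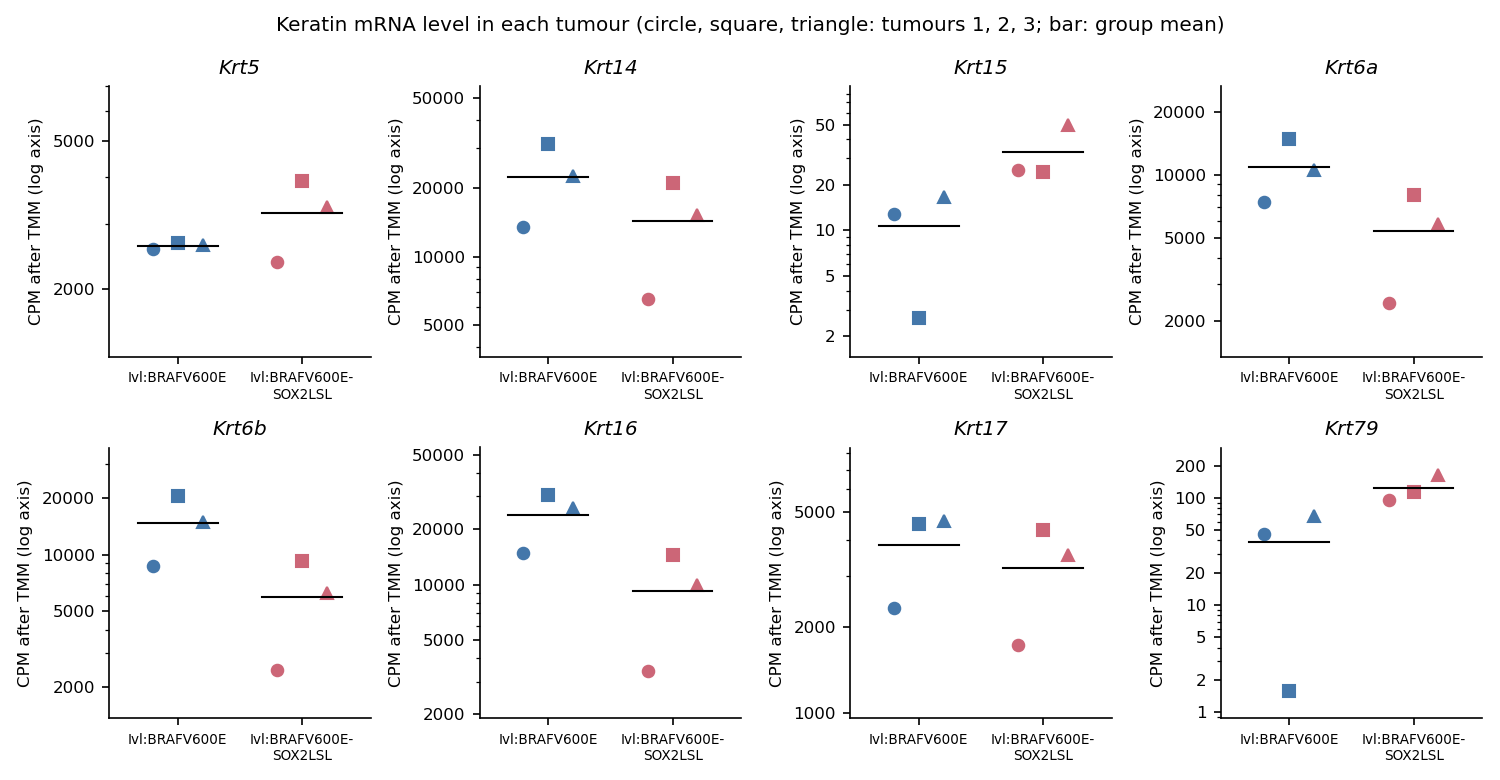
Each panel shows 1 keratin, with the CPM after TMM on a log axis, each symbol 1 tumour and each bar the arithmetic mean of 3 tumours. Krt15, Krt16 and Krt79 have no overlap between the genotypes, Krt5 spans a narrow range, and tumour 2 of Ivl:BRAFV600E is far below the others for Krt15 and Krt79.

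Krt5, the type II keratin of basal cells, was the steadiest of the 8 in CPM after TMM. It was at 2561, 2668 and 2625 CPM in Ivl:BRAFV600E tumours 1 to 3, and at 2371, 3899 and 3314 CPM in Ivl:BRAFV600E-SOX2LSL tumours 1 to 3. The Ivl:BRAFV600E tumours lay within 1.04-fold of each other and inside the range of the other group, which spanned 1.64-fold. This overlap depended on the scaling, since relative to the library totals alone the Ivl:BRAFV600E-SOX2LSL tumours, at 2976, 4176 and 3556 CPM, were all above the Ivl:BRAFV600E tumours, at 2199 to 2411 CPM. Krt5 had a log2 fold change of 0.29 ± 0.23 (SE, n = 3 per group; 95% interval -0.24 to 0.82; edgeR adjusted p = 0.452).

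Krt14, the type I partner of Krt5, varied far more. Its level was 13433, 31244 and 22699 CPM in Ivl:BRAFV600E and 6527, 21146 and 15298 CPM in Ivl:BRAFV600E-SOX2LSL, a 4.79-fold span over the 6 tumours. The groups overlapped, with tumour 1 the lowest and tumour 2 the highest of each. Krt14 had a log2 fold change of -0.65 ± 0.50 (SE; 95% interval -1.83 to 0.53; edgeR adjusted p = 0.447).

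Krt15, a basal keratin that is high in the hair follicle bulge, was scarce in these tumours. It was at 12.8, 2.63 and 16.6 CPM in Ivl:BRAFV600E and at 25.1, 24.3 and 49.9 CPM in Ivl:BRAFV600E-SOX2LSL. Every Ivl:BRAFV600E-SOX2LSL tumour was above every Ivl:BRAFV600E tumour, and Ivl:BRAFV600E tumour 2 stood lowest. For Krt15 the log2 fold change was 1.63 ± 0.62 (SE; 95% interval 0.17 to 3.09; unadjusted p = 0.033, adjusted p = 0.159 in edgeR), and DESeq2 gave an adjusted p of 0.041.

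Of 11 other genes of basal keratinocytes 2 rose, where 3.9% of all genes were called in either direction. All 11 had a log2 fold change above 0, with a median of 0.95 beside 0.04 over all genes, but Trp63 (0.10), Dst (0.38) and Col17a1 overlapped between the groups. The called genes were Lamb3, a chain of laminin-332, at 81.8, 116 and 80.6 CPM against 239, 193 and 150 CPM (log2 fold change 1.06, edgeR adjusted p = 0.049), and Cdh3, P-cadherin, at 103, 99.5 and 96.8 CPM against 210, 157 and 188 CPM (log2 fold change 0.89, edgeR adjusted p = 0.027). Col17a1 and Itga6, the most abundant of the others and both parts of the hemidesmosome, had log2 fold changes of 0.80 and 0.67 and were not called (edgeR adjusted p = 0.183 and 0.070). The log2 fold changes of Krt5 and Krt15 were also above 0 and that of Krt14 below, none of them called.

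Krt6a and Krt6b, the type II stress keratins, were lower on average in Ivl:BRAFV600E-SOX2LSL, and neither passed the test. Krt6a was at 7390, 14738 and 10583 CPM in Ivl:BRAFV600E and at 2430, 7969 and 5785 CPM in Ivl:BRAFV600E-SOX2LSL. Krt6b was at 8658, 20485 and 14802 CPM and at 2443, 9257 and 6278 CPM. For both genes the groups overlapped in 1 place only, Ivl:BRAFV600E-SOX2LSL tumour 2 being above Ivl:BRAFV600E tumour 1.

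The log2 fold change of Krt6a was -1.02 ± 0.47 (SE; 95% interval -2.12 to 0.09; edgeR adjusted p = 0.224) and that of Krt6b was -1.29 ± 0.53 (SE; 95% interval -2.54 to -0.04; unadjusted p = 0.045, adjusted p = 0.184 in edgeR). With the counts of both summed to 1 feature, because of the stretches printed above, it was -1.17 (edgeR adjusted p = 0.209).

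Krt16, the type I stress keratin that pairs with K6, showed the largest decrease of the 8 on the log2 scale. It was at 14824, 30427 and 25709 CPM in Ivl:BRAFV600E and at 3426, 14442 and 9918 CPM in Ivl:BRAFV600E-SOX2LSL. The groups did not overlap, but the nearest tumours, Ivl:BRAFV600E tumour 1 and Ivl:BRAFV600E-SOX2LSL tumour 2, were close. For Krt16 the log2 fold change was -1.35 ± 0.55 (SE; 95% interval -2.64 to -0.06; unadjusted p = 0.042, adjusted p = 0.178 in edgeR), and DESeq2 gave adjusted p = 0.039 for Krt16 and 0.048 for Krt6b.

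Krt17, a type I stress keratin that is also made in hair follicles and glands, lay close in both genotypes. Its level was 2320, 4548 and 4648 CPM in Ivl:BRAFV600E and 1729, 4316 and 3548 CPM in Ivl:BRAFV600E-SOX2LSL, and the groups overlapped. The log2 fold change was -0.26 ± 0.41 (SE; 95% interval -1.22 to 0.69; edgeR adjusted p = 0.717). It was 0.09 under limma voom and 0.03 without Ivl:BRAFV600E-SOX2LSL tumour 1, so its sign was not fixed.

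Krt79, a type II keratin of the infundibulum and the sebaceous duct, was the most variable member. It was at 45.9, 1.57 and 67.6 CPM in Ivl:BRAFV600E and at 94.6, 114 and 164 CPM in Ivl:BRAFV600E-SOX2LSL. No value overlapped, and Ivl:BRAFV600E tumour 2 stood 43.1-fold below the highest tumour of its own group. The log2 fold change was 1.69 ± 0.98 (SE; 95% interval -0.62 to 4.0; edgeR adjusted p = 0.318). It was 1.13 without that tumour, 2.38 without Ivl:BRAFV600E tumour 3 and 2.51 under limma voom.

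Krt79 and Krt15 shared this order of the Ivl:BRAFV600E tumours, with tumour 2 lowest and tumour 3 highest. Keratins listed for the hair follicle sheath were also lowest there. Their sum over 10 genes was 189, 13.3 and 331 CPM in Ivl:BRAFV600E and 26.2, 248 and 562 CPM in Ivl:BRAFV600E-SOX2LSL. Among these keratins Krt71 of the inner root sheath was at 33.7, 0.046 and 109 CPM and at 0, 11.6 and 51.4 CPM. Krt42 was at 116, 9.70 and 86.6 CPM and at 12.6, 217 and 443 CPM. It made up most of the sum in Ivl:BRAFV600E tumours 1 and 2 and Ivl:BRAFV600E-SOX2LSL tumours 2 and 3. The sum is therefore not a measure of the sheath as a whole. The median log2 fold change of the 10 was -1.14, and Krt71 and Krt42 were not called (edgeR adjusted p = 0.733 and 0.412). The amount of follicle in a sample was not measured, and its part in the values of Krt15 and Krt79 was not tested.

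Of 10 genes of the sebaceous gland and its duct the test called 1, Cidea, a lipid droplet protein of sebocytes, at 25.0, 17.4 and 10.3 CPM against 5.62, 6.15 and 5.31 CPM (log2 fold change -1.62, edgeR adjusted p = 0.042). Scd1, a fatty acid desaturase, and Cst6, the protease inhibitor cystatin M, had log2 fold changes of 1.23 and -1.01 (edgeR adjusted p = 0.0996 and 0.0546). The list of 10 genes of hair follicle stem cells and the junctional zone held 1 called gene, Tcf3, which is the widely expressed E2A factor and not the bulge factor Tcf7l1 that once bore this name, at 35.4, 28.8 and 30.3 CPM against 61.6, 50.5 and 56.4 CPM (log2 fold change 0.83, edgeR adjusted p = 0.029). The most abundant of the others, Sox9 and Fst, had log2 fold changes of -0.48 and 2.43 and were not called (edgeR adjusted p = 0.297 and 0.148). The value of Fst rested on Ivl:BRAFV600E-SOX2LSL tumour 1, with 30.4, 15.5 and 18.1 CPM against 283, 28.4 and 34.9 CPM, and the groups overlapped. Of the sebaceous and duct genes 7 of 10 and of the stem and junctional zone genes other than Tcf3 7 of 9 had log2 fold changes above 0, as Krt15 and Krt79 did, with medians of 0.31 and 0.46 beside 0.04 over all genes. Lrig1, a marker of the junctional zone that is named after its values were seen, was at 19.3, 8.13 and 19.8 CPM against 82.8, 41.6 and 49.0 CPM and just missed the threshold (log2 fold change 1.88, edgeR adjusted p = 0.0504).

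**Figure D3:**
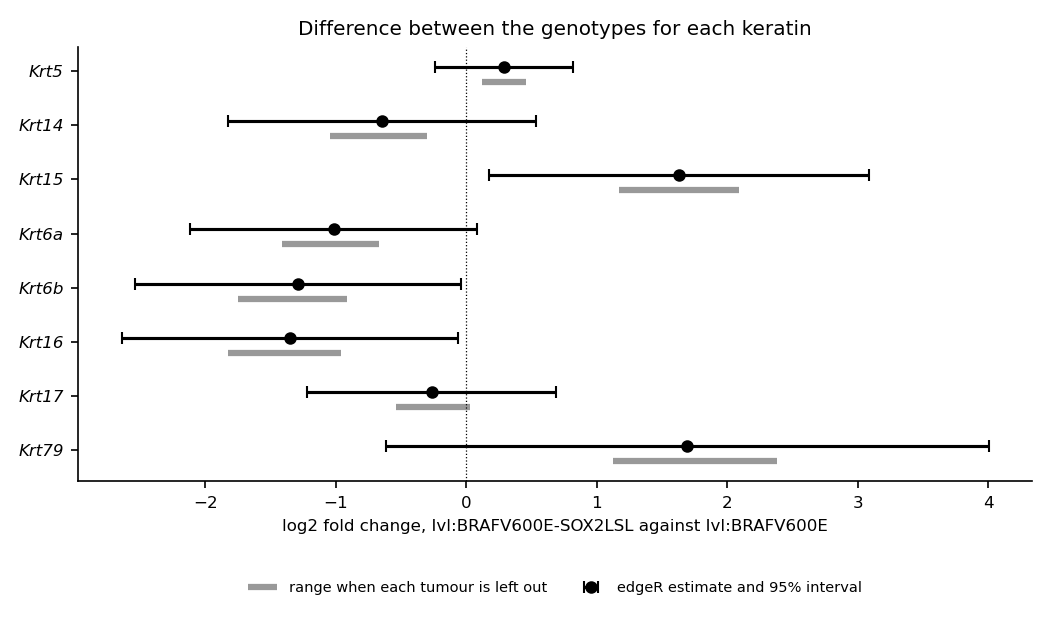
Points give the log2 fold change of each keratin between the genotypes (x axis), black bars its 95% interval in edgeR, and grey bars the range when each tumour is left out in turn. The intervals of Krt15, Krt6b and Krt16 exclude 0 before adjustment, and leaving out a tumour changes the sign of Krt17 alone.

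Of the 8 keratins, 6 went up and down together from tumour to tumour within the Ivl:BRAFV600E-SOX2LSL group. For Krt5, Krt14, Krt6a, Krt6b, Krt16 and Krt17 tumour 1 was lowest, tumour 3 next and tumour 2 highest. In Ivl:BRAFV600E the same order held for Krt5, Krt14, Krt6a, Krt6b and Krt16, while Krt17 was highest in tumour 3. For Krt5 in Ivl:BRAFV600E this order came with the TMM factors, since relative to the library totals alone it was at 2411, 2199 and 2345 CPM, with tumour 2 lowest. Within Ivl:BRAFV600E the highest tumour exceeded the lowest by 1.99-fold for Krt6a, 2.37-fold for Krt6b and 2.05-fold for Krt16. Within Ivl:BRAFV600E-SOX2LSL these spans were 3.28-fold, 3.79-fold and 4.21-fold. The sum of the 14 keratinocyte genes had the same order in both groups. In tumours 1 to 3 it was 25908.5, 38478 and 33398 CPM in Ivl:BRAFV600E and 11470, 24195 and 20335 CPM in Ivl:BRAFV600E-SOX2LSL. The shared order is thus not particular to these keratins.

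As a description over the 6 tumours, among 8649 genes with a mean of at least 10 CPM, the genes most like Krt6a in log2 CPM were Krt6b (Pearson r = 0.997), Chmp3 (0.996), Krt16 (0.993), Sfn (0.993) and Tgm3 (0.991). Sfn encodes 14-3-3 sigma of stratified epithelia, and Tgm3 a transglutaminase of the cornifying layers. The genes most like Krt14 were Lce3a, a late cornified envelope gene (0.989), Arl4d (0.987), Vps50 (0.985), Lysmd4 (0.984) and Rnf20 (0.984). Krt5 stood at rank 3399 for likeness to Krt14 (r = 0.37), and Krt6a at rank 17. The 6 tumours are of 2 genotypes, and a difference between the genotypes enters all such values.

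Compared per kilobase of exon, which allows levels to be set against each other between genes, Krt16 ranked 2 and Krt14 ranked 3 of the 24433 genes by their mean over the 6 tumours. Krt6b ranked 8, Krt6a 10, Krt17 13 and Krt5 19, while Krt79 ranked 2231 and Krt15 3085. The length used for Krt79, 4753 bases, is that of all its annotated exons joined, where its transcript compared above has 2097. This lowers its rank and its shares per kilobase of exon. In Ivl:BRAFV600E the mean level was 15114 ± 5113 CPM per kb for Krt16 and 12775 ± 5067 CPM per kb for Krt14 (SD, n = 3). In Ivl:BRAFV600E-SOX2LSL this order was turned, with 8148 ± 4185 CPM per kb for Krt14 and 5918 ± 3538 CPM per kb for Krt16, and in every tumour of each group the order was that of its means.

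Ratios of counts within a tumour do not depend on the scaling of the library. Per Krt14 count there were 1.10, 0.974 and 1.13 Krt16 counts in Ivl:BRAFV600E and 0.525, 0.683 and 0.648 in Ivl:BRAFV600E-SOX2LSL, 1.74-fold fewer on the mean of log2 ratios. Per Krt16 count there were 0.157, 0.15 and 0.181 Krt17 counts and 0.505, 0.299 and 0.358, 2.34-fold more. In both ratios the groups were clear of each other and Ivl:BRAFV600E-SOX2LSL tumour 1 was the farthest out. These 2 ratios were picked after the values had been seen and have no test.

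Ratios of the classical partners were set in the design. Krt5 per Krt14 was 0.191, 0.0854 and 0.116 in Ivl:BRAFV600E and 0.363, 0.184 and 0.217 in Ivl:BRAFV600E-SOX2LSL, 1.98-fold more on average, with an overlap between Ivl:BRAFV600E tumour 1 and Ivl:BRAFV600E-SOX2LSL tumour 2 (exact two-sided permutation p = 0.2, adjusted 0.24 over 6 relations). Krt6a per Krt16 was 0.499, 0.484 and 0.412 in Ivl:BRAFV600E and 0.709, 0.552 and 0.583 in Ivl:BRAFV600E-SOX2LSL, a 1.32-fold difference. Krt6b per Krt6a was 1.17, 1.39 and 1.40 and 1.005, 1.16 and 1.08, a 1.22-fold difference in the other direction, with all the uncertainty of their shared windows.

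For both of these ratios the groups did not overlap, and the exact two-sided permutation p was 0.1, the smallest that 3 tumours against 3 allow (adjusted 0.15). Both differences are therefore given by their values, since this test cannot go below 0.05 with 3 tumours in each group.

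**Figure D4:**
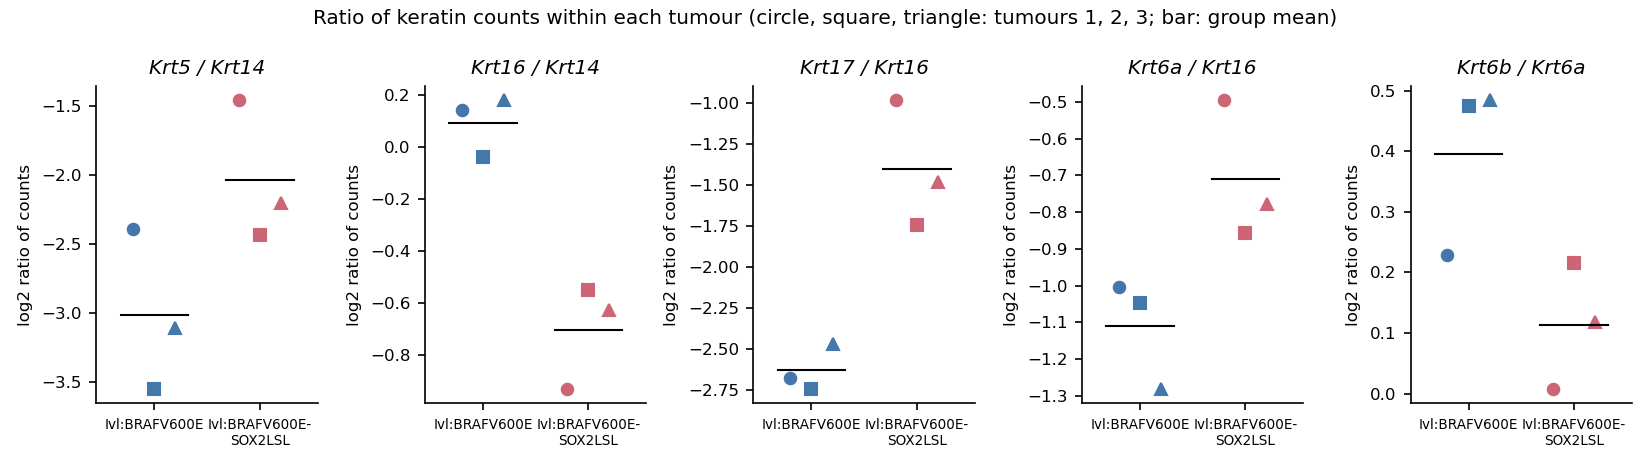
Each panel shows the log2 ratio of the counts of 2 keratins within each tumour, with each symbol 1 tumour and each bar the mean of 3 tumours. Krt16 per Krt14 and Krt6b per Krt6a were lower and Krt17 per Krt16 and Krt6a per Krt16 higher in all Ivl:BRAFV600E-SOX2LSL tumours, and Krt5 per Krt14 overlaps.

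Krt6a, Krt6b, Krt16 and Krt17 together made up 67.4%, 67.4% and 68.7% of the counts of the 8 keratins in Ivl:BRAFV600E and 52.7%, 58.8% and 57.6% in Ivl:BRAFV600E-SOX2LSL. The 3 Ivl:BRAFV600E tumours were nearly alike in this share and all stood above the others. The exact two-sided permutation p was 0.1, the smallest that 3 tumours against 3 allow (adjusted 0.15 over 6 relations). The 8 keratins took 4.64%, 8.58% and 7.25% of all counts in Ivl:BRAFV600E and 2.39%, 6.55% and 4.76% in Ivl:BRAFV600E-SOX2LSL, and these groups overlapped.

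Among the counts on all keratin genes the 8 took a larger share in Ivl:BRAFV600E-SOX2LSL, 89.4%, 78.3% and 67.4% against 43.9%, 55.5% and 50.9% (exact two-sided permutation p = 0.1, adjusted 0.15). The largest part of the rest was Krt1 and Krt10, the keratins of the differentiating suprabasal layers, which took 54.4%, 43.6% and 47.8% in Ivl:BRAFV600E and 6.74%, 20.3% and 30.7% in Ivl:BRAFV600E-SOX2LSL. The log2 fold changes of Krt1 and Krt10 were -2.24 and -3.06 (edgeR adjusted p = 0.149 and 0.093), and neither was called. Of 8 suprabasal keratins the test called 1, Krt76, at 2.05, 3.0 and 0.855 CPM against 0.084, 0.259 and 0.144 CPM (log2 fold change -3.58, edgeR adjusted p = 0.034), and the median of the list was -2.19.

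In the make-up of the keratin mRNA per kilobase of exon, 2 of the 8 members overlapped between the genotypes. Krt16 took 19.6% to 23.4% of it in Ivl:BRAFV600E and 19.9% to 24.1% in Ivl:BRAFV600E-SOX2LSL, and this is the member with the largest decrease in CPM. Krt6b was at 8.01% to 10.8% and 9.07% to 10.8%. Krt14 took 15.8% to 21.0% and 28.1% to 33.7%, Krt5 1.44% to 2.41% and 4.64% to 9.78%, Krt17 3.09% to 4.26% and 7.27% to 10.1%, and Krt6a 6.22% to 7.21% and 7.73% to 9.11%, all without overlap and higher in Ivl:BRAFV600E-SOX2LSL. Krt15 and Krt79, each below 0.2% in every tumour, were also higher there without overlap. Shares of a whole depend on each other, and a lower share of Krt1 and Krt10 raises all others.

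The balance of the filament types depended on the scale. As counted, type II per type I over all keratins was 0.874, 0.82 and 0.861 in Ivl:BRAFV600E and 0.695, 0.759 and 0.795 in Ivl:BRAFV600E-SOX2LSL, lower without overlap. Per kilobase of exon it was 0.487, 0.470 and 0.473 in Ivl:BRAFV600E and 0.475, 0.460 and 0.466 in Ivl:BRAFV600E-SOX2LSL. On that scale the groups overlapped.

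**Figure D5:**
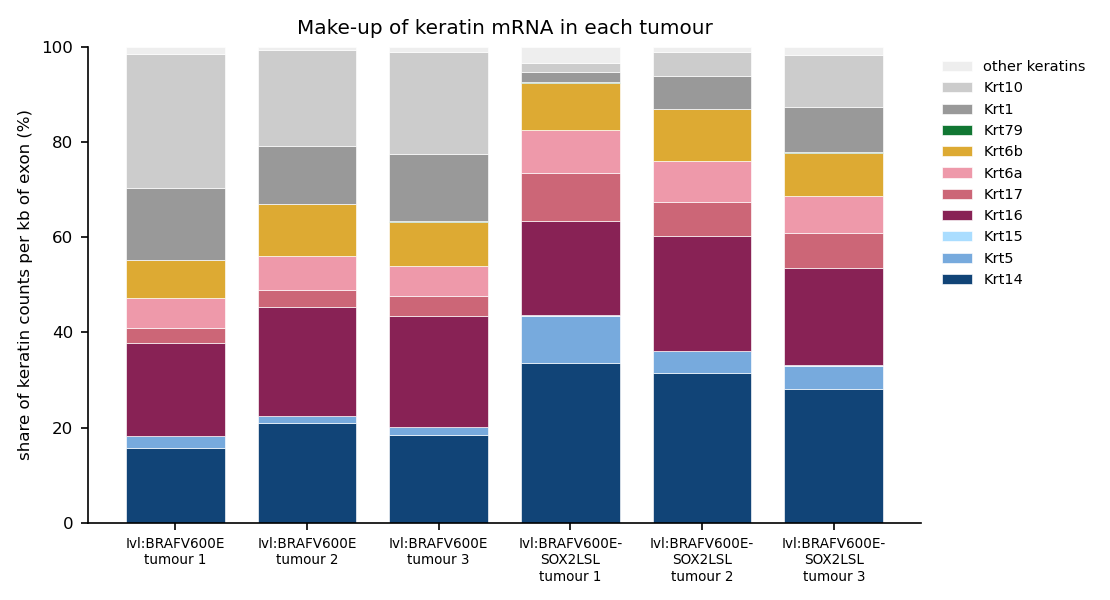
Stacked bars give the percentage of keratin counts per kilobase of exon that each keratin took in each of the 6 tumours. Krt1 and Krt10 (grey) shrink from 32.5% to 43.3% in Ivl:BRAFV600E to 3.89% to 20.5% in Ivl:BRAFV600E-SOX2LSL, Krt14, Krt5, Krt17 and Krt6a widen, and Krt16 takes a like share in both. Krt15 and Krt79 are too scarce to be seen.

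The family as a whole gave 5 calls among 52 tested keratins (9.62%, beside 3.9% of all genes), none of them a member. Krt9, Krt12, Krt24 and Krt76 fell and Krt20, a keratin of simple epithelia, rose. Krt9 changed most of the 5, with a log2 fold change of -12.1 (edgeR adjusted p = 0.021) at a mean of 130 CPM over the 6 tumours. Per the paper, Ivl:BRAFV600E mice had lesions at sites that included back, paws, ears and lips. The body site of the tumours was not taken into account here, and its part in the keratin values was not tested. Krt20 was at 0.034, 0.139 and 0.142 CPM in Ivl:BRAFV600E, which is 3 counts or fewer in each tumour, and at 64.7, 4.37 and 16.3 CPM in Ivl:BRAFV600E-SOX2LSL. Krt13 of mucosa and Krt8 of simple epithelia had log2 fold changes of 3.83 and 6.10 and were not called (edgeR adjusted p = 0.071 and 0.083). All 7 keratins of simple and mucosal epithelia had log2 fold changes above 0, but for some, among them Krt7 and Krt19, this rested on Ivl:BRAFV600E-SOX2LSL tumour 1. Krt7 was at 15.4, 0.324 and 0.722 CPM in that group and Krt19 at 86.8, 0.032 and 0.072 CPM. The Ivl:BRAFV600E tumours had 0.409 to 1.33 CPM of Krt7 and 0.462 to 1.38 CPM of Krt19. Krt8, at 106, 8.65 and 2.31 CPM against 0.648, 0 and 1.045 CPM, did not overlap, and only the size of its difference rested on that tumour. The sum of the 7 was 135 to 559 CPM in Ivl:BRAFV600E-SOX2LSL, above Krt15 in every tumour of that group and far below Krt5, Krt14 and the stress keratins.

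Stress keratins are usually read beside other genes of the wounded epidermis. Of 19 such genes tested 5 fell and 2 rose. Sprr1a and Sprr1b, cornified envelope precursors, fell, Sprr1a from 2290, 3135 and 1785 CPM to 466, 743 and 654 CPM (log2 fold change -1.95, edgeR adjusted p = 0.024) and Sprr1b with a log2 fold change of -2.31 (edgeR adjusted p = 0.035). Sprr2h, the antimicrobial peptide gene Defb14 and the EGF receptor ligand gene Ereg also fell, with log2 fold changes of -0.96, -1.57 and -1.57 (edgeR adjusted p = 0.036, 0.028 and 0.027).

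The genes of the list that rose encode cytokines. Il1a, the interleukin-1 alpha of keratinocytes, was at 16.3, 20.1 and 12.5 CPM in Ivl:BRAFV600E and at 53.3, 66.1 and 52.6 CPM in Ivl:BRAFV600E-SOX2LSL (log2 fold change 1.81, edgeR adjusted p = 0.013). Il19, an interleukin of the IL-10 family, was at 0.546, 0.139 and 0.713 CPM and at 56.0, 180 and 77.2 CPM (log2 fold change 7.78, edgeR adjusted p = 0.0071). The list thus held called genes of both signs, with a median of 0.69, while the log2 fold changes of the 4 stress keratins were below 0, that of Krt17 turning above 0 under 3 of the alternatives. The myeloid markers Ptprc and Csf1r rose with these cytokine genes, and their part in that rise was not tested.

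Among 17 regulators of keratin genes the test called 1, Nfe2l2, which encodes NRF2, a factor of the oxidative stress response that acts on Krt6, Krt16 and Krt17. It was at 397, 490 and 339 CPM in Ivl:BRAFV600E and at 215, 247 and 217 CPM in Ivl:BRAFV600E-SOX2LSL (log2 fold change -0.85, edgeR adjusted p = 0.045). Klf4, a factor of epidermal differentiation, and Junb, an AP-1 subunit, had log2 fold changes of -1.09 and -0.24 and were not called (edgeR adjusted p = 0.16 and 0.404).

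Among 9 genes that tie keratin filaments to junctions the test called 1, Plec, the plectin that links filaments to hemidesmosomes, at 949, 845 and 1069 CPM against 1919, 1590 and 1772 CPM (log2 fold change 0.88, edgeR adjusted p = 0.041). Dsp and Pkp1, which encode the desmosome proteins desmoplakin and plakophilin 1, had log2 fold changes of -0.84 and -1.13 without a call (edgeR adjusted p = 0.188 and 0.152).

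Library sizes were also scaled on the geometric mean of the 14 keratinocyte genes in place of all genes. In that mean each gene weighs alike, so scarce Epcam, which rose, counts as much as abundant Dsp. On this scale the log2 fold changes were -1.35 for Krt16, -1.28 for Krt6b, -0.999 for Krt6a, -0.62 for Krt14 and -0.23 for Krt17. Those of the other members were 0.33 for Krt5, 1.66 for Krt15 and 1.70 for Krt79. The smallest adjusted p of the 8 in edgeR on this scale was 0.083, for Krt16. Of the 14 genes that set it, 7 had log2 fold changes above 0 on the usual scale and 7 below. The scaling factors of single tumours differed from those of TMM, that of Ivl:BRAFV600E-SOX2LSL tumour 1 being 0.966 in place of 1.25, and Krt5 did not overlap on this scale, at 2345 to 2799 CPM in Ivl:BRAFV600E and 3081 to 3360 CPM in Ivl:BRAFV600E-SOX2LSL.

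The sum of the same 14 genes, which was lower in Ivl:BRAFV600E-SOX2LSL, gave other values. As a percentage of that sum, a measure added after the data were seen and with no test, Krt16 was at 57.2%, 79.1% and 77% in Ivl:BRAFV600E and at 29.9%, 59.7% and 48.8% in Ivl:BRAFV600E-SOX2LSL, so the groups overlapped and the log2 ratio of the means was -0.62. For Krt14 the log2 ratio turned to 0.13 and for Krt17 to 0.54, while it was -0.25 for Krt6a and -0.53 for Krt6b. Krt5 was at 9.89%, 6.93% and 7.86% against 20.7%, 16.1% and 16.3%, a log2 ratio of 1.10 without overlap. Krt15 and Krt79 had log2 ratios of 2.41 and 2.45, also without overlap. The signs for Krt14 and Krt17 and the size of the differences for the other keratins thus depended on which measure of the epithelium they were set against.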

How the data were processed

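RNA of mouse skin tumours was depleted of ribosomal RNA and sequenced as paired-end reads. Per the paper's methods and the submitters' processing notes, the authors checked reads with FastQC 0.11.8, trimmed them with Trim Galore, aligned them to GRCm38 with HISAT2 2.1.0 and counted them per gene with featureCounts of Subread 1.6.3. They deposited raw counts per gene. Strand and multimapping settings are not given in the sources used here.

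Mouse names head the 7 columns of the table. Genotype and sex are given for 6 of these mice in the study's list, which put 3 in each group, and the remaining 1 column was not used. The labels hold 4 Ivl:BRAFV600E and 3 Ivl:BRAFV600E-SOX2LSL samples, and the test had been designed for all tumours that could be mapped.

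Genes that reached 5 reads in 1 tumour or more were scaled by TMM and tested with the quasi-likelihood test of edgeR 4.0.16 (R 4.3.3), with Benjamini-Hochberg adjustment over all genes at 0.05. The SE is the log2 fold change divided by the root of the F statistic. Alternatives were the Wald test of DESeq2 1.42.0, sample-weighted voom in limma 3.58.1, other scalings and filters, sex as a covariate and each tumour left out in turn. Ratios were compared by exact permutation over tumours (SciPy 1.17.1). Coordinates and transcript sequences came from GENCODE M21. The scripts were tested on simulated data.

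The members and lists were chosen with earlier results of these data known. Named are the 8 members, the called genes of each keratin, epithelial, stress or regulator list, otherwise its 2 most abundant genes, and the 5 genes most like Krt14 and Krt6a. The other called keratins, Krt7, Krt19, Trp63, Dst, Myh4 and Gm26917 are named after their values were seen. The floor of detection was taken as 3 counts.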

Additional observations from a re-analysis of the deposited data

How the results depend on the processing

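The number of keratins called was 0 of 8 under every alternative run except DESeq2, which called 3 (Krt15, Krt6b and Krt16). The number of genes called over the whole table depended far more on the choice, being 954 in the reported test, 3653 with DESeq2, 2142 with limma voom, 1759 with no filter on low counts and 228 with sex as a covariate. It ranged from 22 to 1575 when each tumour was left out, with 22, 50 and 179 without Ivl:BRAFV600E tumours 1, 2 and 3 and 1575, 202 and 412 without Ivl:BRAFV600E-SOX2LSL tumours 1, 2 and 3, and the cause was not tested. The log2 fold change of Krt17 turned to 0.0897 under limma voom and 0.0322 without Ivl:BRAFV600E-SOX2LSL tumour 1, and ranged from -0.54 to 0.03 over the tumours left out. Relative to the summed CPM of the 14 keratinocyte genes, added after the data were seen, Krt14 turned to 0.127 and Krt17 to 0.538. The other 6 keratins kept their sign under all alternatives run. The difference in log2 type II to type I counts of the 8 keratins was -0.013 as counted and 0.00296 per kilobase of exon, and ranged from -0.088 to 0.037 when each tumour was left out, so it has no direction. No paired analysis was possible because the columns carry mouse names and not the replicate numbers of the labels. Precision is limited by 3 tumours per group, and for Krt15 and Krt79 also by low levels in 1 tumour.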
